A study of Mus musculus with 6 samples.

Results

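Ribosomal protein paralogs are genes that arose as copies of a core ribosomal protein gene and encode a closely related protein. Of 6 such mouse genes chosen by symbol (Rpl22l1, Rpl7l1, Rpl36al, Rpl39l, Rpl3l and Rps27l), 5 had a row among the 17348 genes of the E18.5 table, and Rpl3l was not analysed here. Each was compared with the core gene it is named after (Rpl22, Rpl7, Rpl36a, Rpl39, Rpl3 and Rps27, all 6 in the table), and these core genes were set among 80 core ribosomal protein genes, all of which had a row. The libraries came from cortices of embryos at E18.5, 3 from Ybx1 cKO embryos and 3 from control littermates. The cKO embryos carried Nestin-Cre and floxed Ybx1 alleles (Nestin-Cre,Ybx1 fl/fl), in which Cre removes exons 3 to 8 of Ybx1, the gene of an RNA-binding protein that reads 5-methylcytosine. The control group is labelled WT, was described as wild type littermates for sequencing and as Ybx1 fl/fl elsewhere in the study, so that whether the control embryos carried floxed alleles is not settled by the sources used here. The Nestin promoter drives Cre in neural stem and progenitor cells and their progeny, and the other cells of a dissected cortex, such as those of vessels and blood, keep Ybx1.

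As background, a eukaryotic ribosome holds a single copy of nearly every ribosomal protein, and a paralog product can take the place of the core protein in part of the ribosomes. Transcripts of core ribosomal protein genes begin with a pyrimidine tract through which their translation is controlled together. Rpl22 and Rpl22l1 encode an RNA-binding protein of the large subunit and its paralog, and Rpl22l1 is known to be held down by Rpl22 protein. Rpl7l1 is related to a yeast factor of large subunit assembly, Rpl36al encodes a nearly identical partner of Rpl36a, Rpl39l is used by male germ cells, Rpl3l by heart and skeletal muscle, and Rps27l is a target of p53.

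The paralogs differ in sequence from their partners to very different degrees, which bears on whether reads can be assigned to one gene. Coding sequences of the GENCODE M21 annotation of GRCm38 were aligned pair by pair. Identity was 87.9% for Rpl36al and Rpl36a, with 39 mismatches of which 35 fell at the third codon position, and 85.3% for Rpl39l and Rpl39. It was 76.1% for Rps27l and Rps27 (61 mismatches, 53 at the third codon position), 73.2% for Rpl3l and Rpl3, 66.9% for Rpl22l1 and Rpl22, and 52.8% for Rpl7l1 and Rpl7. The most divergent pair and the small subunit pair are shown from their start codons, Rps27l and Rps27 over all 255 coding bases and the Rpl7 pair over the first 300, in lower case, with capitals at the bases that differ from the partner or have no counterpart in it.
Rpl7l1: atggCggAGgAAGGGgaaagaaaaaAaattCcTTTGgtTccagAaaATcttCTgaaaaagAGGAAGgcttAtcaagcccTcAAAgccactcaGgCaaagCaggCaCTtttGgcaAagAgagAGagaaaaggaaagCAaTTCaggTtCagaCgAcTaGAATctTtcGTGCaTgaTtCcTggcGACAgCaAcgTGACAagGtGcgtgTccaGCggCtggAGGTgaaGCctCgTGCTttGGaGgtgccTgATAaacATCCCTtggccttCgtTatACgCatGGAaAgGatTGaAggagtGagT
Rpl7: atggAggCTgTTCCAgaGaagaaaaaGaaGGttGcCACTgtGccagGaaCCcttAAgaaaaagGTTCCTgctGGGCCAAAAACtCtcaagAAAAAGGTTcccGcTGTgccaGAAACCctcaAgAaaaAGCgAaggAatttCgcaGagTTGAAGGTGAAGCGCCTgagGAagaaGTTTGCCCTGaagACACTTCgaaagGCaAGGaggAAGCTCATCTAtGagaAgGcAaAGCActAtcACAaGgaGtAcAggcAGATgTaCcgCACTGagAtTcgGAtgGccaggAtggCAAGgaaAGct
Rps27l: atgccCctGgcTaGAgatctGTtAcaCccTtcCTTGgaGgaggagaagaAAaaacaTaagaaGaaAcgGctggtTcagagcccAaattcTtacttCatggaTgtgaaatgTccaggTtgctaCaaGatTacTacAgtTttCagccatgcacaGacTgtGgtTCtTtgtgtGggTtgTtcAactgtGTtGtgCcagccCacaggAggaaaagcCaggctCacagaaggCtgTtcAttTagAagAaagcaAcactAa
Rps27: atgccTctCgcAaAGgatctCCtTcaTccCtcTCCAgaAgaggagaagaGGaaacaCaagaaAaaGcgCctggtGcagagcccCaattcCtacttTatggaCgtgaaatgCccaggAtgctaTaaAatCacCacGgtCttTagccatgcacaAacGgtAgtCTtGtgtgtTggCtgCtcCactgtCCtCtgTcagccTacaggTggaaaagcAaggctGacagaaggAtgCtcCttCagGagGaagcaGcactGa
In these lines the Rps27 pair carries mostly isolated capitals spread along the frame, whereas the Rpl7 pair carries blocks of them. The longest run of bases shared by any transcript of a paralog and of its partner was 38 for Rpl39, 26 for Rpl22, 24 for Rpl36a, 22 for Rpl7 and 11 for Rps27. On GRCm38, Rpl22l1 lies on chromosome 3 (28805436-28807424, + strand, 4 exons), Rpl7l1 on chromosome 17 (46773907-46782672, - strand, 7 exons), Rpl36al on chromosome 12 (69182731-69184083, - strand, 2 exons with the coding part in 1), Rpl39l on chromosome 16 (10170226-10174911, + strand, 3 exons with the coding part in 1) and Rps27l on chromosome 9 (66946086-66949516, + strand, 4 exons). The partners Rpl36a and Rpl39 are on the X chromosome, Rpl22 on chromosome 4, Rpl7 on chromosome 1, Rpl3 on chromosome 15 and Rps27 on chromosome 3. Strandedness is not given in the sources used here. Without strand, reads of Rpl22l1 and of the antisense gene Gm33051 could not be told apart, nor those of Rpl7l1 and Gm26904, or Rpl3 and Syngr1. Rpl36al also overlaps Gm49383 on the same strand. Annotated pseudogenes that carry the symbol of their parent gene numbered 3 for Rpl36a and 2 for Rpl3. There was 1 each for Rpl7l1, Rpl22, Rpl7, Rpl39 and Rps27. Their part in the assignment of reads was not tested.

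Library totals were 15091951 to 16885451 estimated counts, so that 3 counts, taken as the floor of detection, corresponded to 0.178 to 0.199 CPM (counts scaled to a fixed TMM-adjusted total), an allowance that covers counting error only. The targeted gene Ybx1 stood at 1015, 1297 and 956 CPM in control libraries 1 to 3 and at 24.0, 24.8 and 24.9 CPM in the cKO libraries. The 4 Y-linked genes Eif2s3y, Kdm5d, Ddx3y and Uty also separated the groups (Uty at 352 to 508 counts in control and 14 to 22 in cKO libraries), so sex and genotype cannot be told apart, and this touches the X-linked partners Rpl36a and Rpl39. Control library 2 stood apart in the share of its counts taken by the 80 core genes, 3.74%, against 2.54% and 2.28% in control libraries 1 and 3 and 1.81% to 1.89% in the cKO libraries. Summed TPM of 8 cortical neuron markers was 4941 to 5257 in control and 4642 to 5205 in cKO libraries. Of 38 marker genes of progenitor, muscle, germ, erythroid, microglial and endothelial cells in the table, 26 were tested. With edgeR or DESeq2, 0 of these and 0 of the neuron markers passed an adjusted p of 0.05. An unadjusted p under 0.05 with edgeR was reached by 2, Pax6 and Cdh5, both higher in cKO. The share of all genes higher at that p was not counted. Of the 6 progenitor markers, 3 had a log2 fold change of cKO over control below 0, with a median of -0.008. In CPM, 5 of the 26 had every cKO library above every control library and 0 had every one below, against 7.35% and 6.93% of all genes. Summed TPM in control and cKO libraries was 265 to 334 and 331 to 346 for progenitor, and 7582 to 8404 and 7999.8 to 9444 for erythroid markers. It was 56.2 to 70.5 and 72.6 to 78.3 for microglial, and 160 to 171 and 179 to 229 for endothelial markers. The part of microglial and endothelial cells in the results was not tested. In bulk tissue, fewer cells of a type and less RNA per cell cannot be told apart.

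In control cortex, Rpl36al and Rpl22l1 were the most abundant of the paralogs in TPM, and Rpl39l lay at the floor. Levels between genes are given as TPM, transcript abundances on a fixed total, which the authors scaled by transcript length. Rpl36al was at 491 ± 61.1 TPM and Rpl22l1 at 469 ± 87.8 TPM (mean ± SD, n = 3, as for all levels that follow). Rps27l followed at 219 ± 51.2 and Rpl7l1 at 67.4 ± 4.08 TPM, while Rpl39l was listed at 0.28, 0 and 0 TPM. Among the core partners, Rps27 was the most abundant at 4469.6 ± 888 TPM, then Rpl7 at 2189 ± 164, Rpl39 at 1893 ± 128, Rpl3 at 1429 ± 137, Rpl36a at 1383 ± 195 and Rpl22 at 335 ± 26.0 TPM. In the order of these 11 genes, 2 pairs of neighbours overlapped in their control libraries, Rpl3 with Rpl36a and Rpl36al with Rpl22l1, and the other neighbours were separated in all 3 control libraries. The order depends on the lengths behind the authors' TPM. In CPM, which is not scaled by length, control means were 73.2 for Rpl7l1, 51.2 for Rpl36al, 42.7 for Rpl22l1 and 22.5 for Rps27l.

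**Figure D1:**
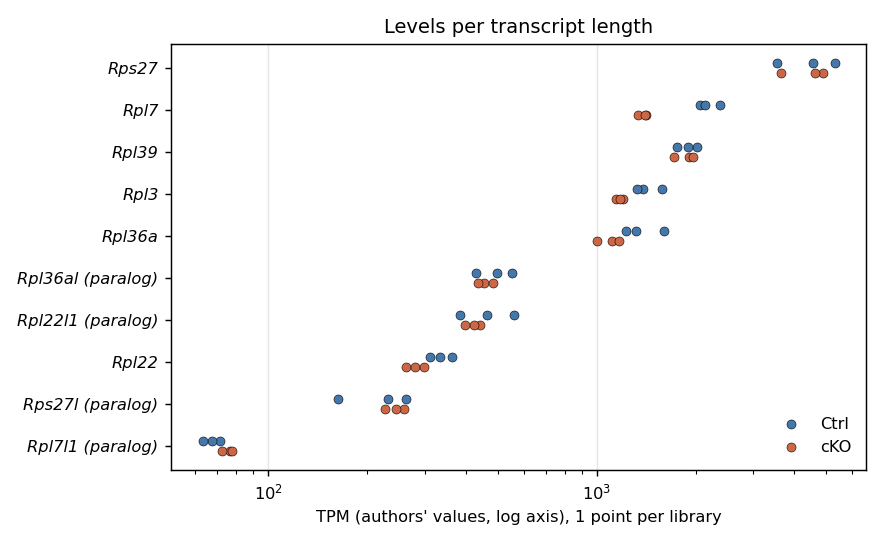
Levels in TPM (log axis) of 4 paralogs and the 6 core partners, in order of their mean in control cortex, with 1 point per library (blue, control; orange, cKO). Rpl22l1 lies above its partner Rpl22 in every library, while Rpl7l1 and Rps27l lie far below Rpl7 and Rps27.

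The 4 detected pairs differed widely in how much of the pair came from the paralog. Rpl22l1 exceeded Rpl22 per length in all 6 libraries, with 464, 559 and 383 TPM in control libraries 1 to 3 against 310, 333 and 362 TPM of Rpl22, and with 440, 423 and 398 TPM in the cKO libraries against 262, 279 and 298 TPM. The gap was narrowest in control library 3. This order rests on the lengths behind the authors' TPM. In estimated counts Rpl22 was higher, at 4274, 5640 and 4398 in control libraries 1 to 3 against 618, 998 and 453 for Rpl22l1. The annotated transcripts aligned above span 552 bases for Rpl22l1 and 474 for Rpl22, so which of the 2 is more abundant is not settled here. For the other pairs, control cortex held in TPM 32.2 times as much Rpl7 as Rpl7l1, 20.5 times as much Rps27 as Rps27l, and 2.81 times as much Rpl36a as Rpl36al. These folds come from the mean over control libraries of the log2 ratio of TPM, with 0.5 added to each TPM. They rest on the same lengths, so their size is not settled here either. In control library 1, the log2 ratio of Rpl7l1 to Rpl7 was -4.84 in TPM and -2.96 in CPM, which is not scaled by length. For Rps27l to Rps27 the 2 values were -4.30 and -2.60, and for Rpl36al to Rpl36a -1.31 and -1.11.

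None of the 4 paralogs tested differed between Ybx1 cKO and control cortex past an adjusted p of 0.05 (edgeR's quasi-likelihood test, Benjamini-Hochberg over all 13570 genes tested), and 0 of the 4 did with DESeq2. Over all genes, 10 passed with edgeR, 0.0737%, among them the targeted gene Ybx1 and the 4 Y-linked genes. Without adjustment, 0 of the 4 paralogs and 4 of the 6 core partners were lower at p under 0.05, where 3.49% of all genes were. Likewise, 0 of the 4 paralogs and 4 of the 6 partners had every cKO library below every control library in CPM, against 6.93% of all genes, and 0 of either had every cKO library above, against 7.35% of all genes. The median log2 fold change (cKO over control) was -0.19 over the 4 paralogs, -0.43 over the 6 partners, -0.60 over the 80 core genes and 0.003 over all genes tested. With 3 libraries in each group, the smallest p that a two-sided exact permutation test can give is 0.1.

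Rpl22l1 was measured at 38.7, 58.4 and 31.0 CPM in control libraries 1 to 3 and at 33.7, 32.9 and 32.2 CPM in the cKO libraries. The cKO libraries lay close together and between control libraries 1 and 3, and control library 2 was by far the highest. The log2 fold change was -0.38 ± 0.206 (SE) with an adjusted p of 0.804 by edgeR. Its partner Rpl22 stood at 268, 330 and 301 CPM in control and at 211, 226 and 240 CPM in cKO libraries, without overlap. For Rpl22 the log2 fold change was -0.41 ± 0.118 (SE), with an unadjusted p of 0.0071 and an adjusted p of 0.482 (edgeR). The pair thus had nearly equal mean changes with very different spread: the control SD was 14.1 CPM around a mean of 42.7 for Rpl22l1, and 31.2 CPM around a mean of 299.8 for Rpl22.

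Rpl7l1, whose yeast relative acts in the assembly of the large subunit, gave 74.9, 80.9 and 63.9 CPM in control and 74.6, 76.3 and 70.5 CPM in cKO libraries. All cKO libraries fell inside the control range, and the log2 fold change was 0.01 ± 0.117 (SE, adjusted p 0.989 by edgeR). Rpl7, a core protein of the large subunit, gave 588, 794 and 589 CPM in control and 372, 358 and 376 CPM in cKO libraries. Every cKO library was well below every control library. Its log2 fold change of -0.83 ± 0.140 (SE) was the lowest among the 6 partners, with an unadjusted p of 0.0002 and an adjusted p of 0.123 by edgeR, short of the threshold in this test. Control library 2 raised the spread of Rpl7: without it the log2 fold change was -0.67 and the adjusted p 0.0024, and over all 14 alternatives the adjusted p ranged from 1.9e-05 to 0.810 (edgeR or DESeq2).

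Rpl36al was at 47.8, 65.9 and 40.01 CPM in control and at 40.1, 39.0 and 45.0 CPM in cKO libraries. Control library 3 was within the cKO range, and the log2 fold change was -0.31 ± 0.176 (SE, adjusted p 0.812 by edgeR). X-linked Rpl36a was at 104, 139 and 131 CPM in control and at 85.9, 78.6 and 95.3 CPM in cKO libraries. Its groups did not overlap, and its log2 fold change was -0.53 ± 0.137 (SE) with an unadjusted p of 0.0040 and an adjusted p of 0.433 by edgeR. Rpl36, the core gene of another large subunit protein with a similar name, changed by -0.62 ± 0.225 (SE) on the log2 scale, with an adjusted p of 0.622 by edgeR.

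Rps27l, the p53 target among the paralogs, gave 21.8, 30.9 and 14.8 CPM in control and 22.4, 19.8 and 22.2 CPM in cKO libraries. The control libraries bracketed the cKO libraries on both sides, with a log2 fold change of -0.07 ± 0.233 (SE, adjusted p 0.964 by edgeR). Core Rps27, of the small subunit, gave 135, 142 and 156 CPM in control and 131, 98.4 and 138 CPM in cKO libraries, with 1 cKO library above the lowest control library. Its log2 fold change was -0.24 ± 0.142 (SE, adjusted p 0.819 by edgeR). Among 20 targets of p53, all tested, 15 were below 0, 0 were called by edgeR and 2 had an unadjusted p under 0.05, both lower, and DESeq2 called 0. Of all 13570 genes tested, 6710 were below 0, and the 3.49% given above were lower at an unadjusted p under 0.05. The median log2 fold change of the p53 targets was -0.07, from -0.72 (Bbc3, a mediator of cell death) to 0.25 (Trp53inp1), and the classical targets Cdkn1a, Mdm2 and Ccng1 were at -0.04, 0.14 and 0.03.

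Rpl39l had 1, 0 and 0 counts in control and 0, 2 and 1 counts in cKO libraries, never above the floor of 3 counts, so it was not detectable at this depth in any library and gave neither a fold nor a ratio. Of the 5 germ cell markers in the table, Mael and Stk31 had at most 3 counts in each library. Ddx4 was the 1 marker with enough counts to be tested, at a log2 fold change of 0.28. Its cKO libraries all lay above its control libraries in CPM, as they did for 7.35% of all genes. The summed level of the germ cell markers was 2.42 to 3.23 TPM in control and 2.88 to 3.61 TPM in cKO libraries. Rpl39, the X-linked partner, was at 108, 159 and 114 CPM in control and at 107, 97.7 and 119 CPM in cKO libraries. Its groups overlapped, with a log2 fold change of -0.24 ± 0.160 (SE, adjusted p 0.844 by edgeR). Rpl3, whose paralog Rpl3l was not analysed here, was at 664, 882 and 616 CPM in control and at 511, 544 and 532 CPM in cKO libraries. For Rpl3 the groups were separated, and the log2 fold change was -0.45 ± 0.147 (SE) with an unadjusted p of 0.014 and an adjusted p of 0.569 by edgeR. Of 9 muscle markers, Myh8, Ckm and Myog had at most 3 counts in each library, and the summed level was 2.76 to 3.79 TPM in control and 1.62 to 3.09 TPM in cKO libraries.

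**Figure D2:**
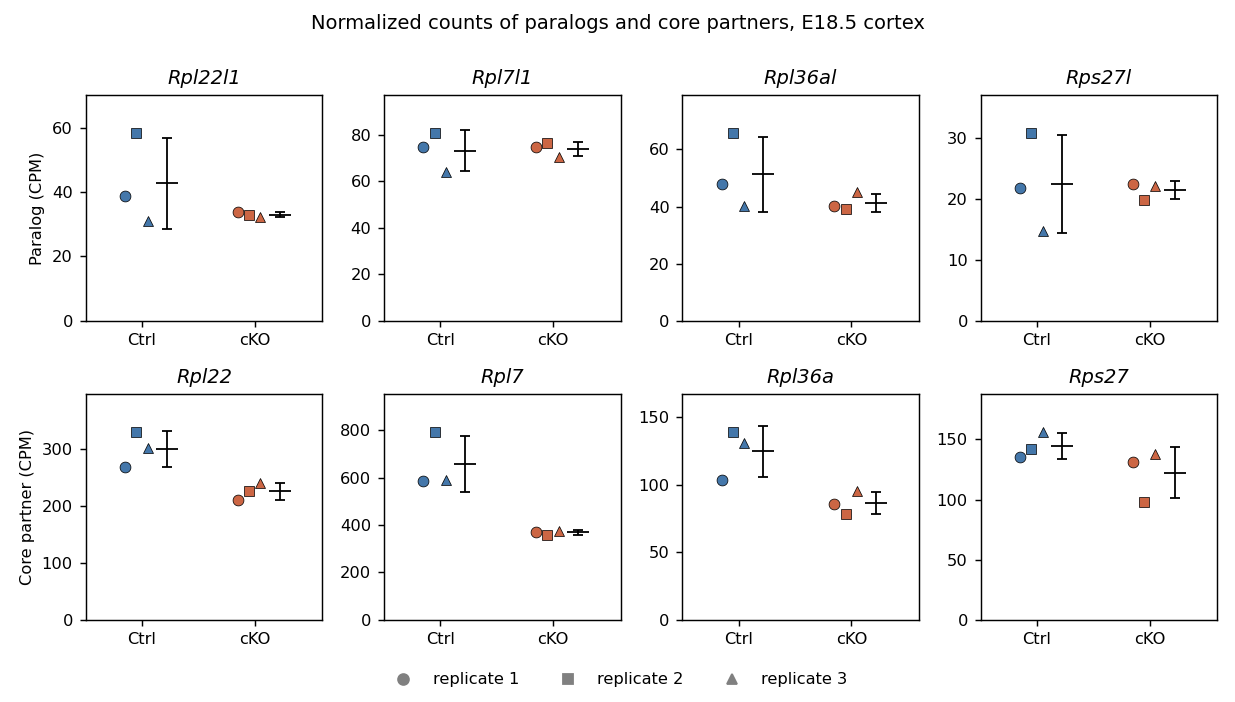
CPM of 4 paralogs and their core partners in the 3 control and 3 cKO libraries, each replicate with its own symbol, beside the mean and SD of each group. The cKO points of the paralogs lie within the control range, apart from 1 of Rpl36al just under it, and those of Rpl22, Rpl7 and Rpl36a lie below it.

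Among the 80 core genes all had a log2 fold change below 0, from -1.36 (Rpsa) to -0.24 (Rps13), while 2 passed the adjusted threshold, Rpsa (adjusted p 0.0269) and Rplp0 (-1.32, adjusted p 0.0228), and 70 had an unadjusted p under 0.05 by edgeR. Counted from the most lowered, Rpl7 ranked 10 among the 80, Rpl36a 49, Rpl3 64, Rpl22 70, Rps27 78 and Rpl39 79, so that 5 of the 6 partners were in the less changed part of the set. Every one of the 80 core genes had a lower log2 fold change than Rpl7l1 and Rps27l, 75 had a lower one than Rpl36al, and 70 had a lower one than Rpl22l1. These positions are a description, since all the genes were measured in the same libraries and each value has its own error. Of 26 factors of large subunit assembly, 25 were tested, 19 were below 0, 0 were called by edgeR and 2 had an unadjusted p under 0.05, both lower. Over all genes, 6710 of 13570 were below 0 and 3.49% were lower at an unadjusted p under 0.05 with edgeR. DESeq2 called 1 of the factors and 99 genes over all. The factors ranged from -0.45 (Nsa2) to 0.11 (Noc3l) with a median of -0.09.

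**Figure D3:**
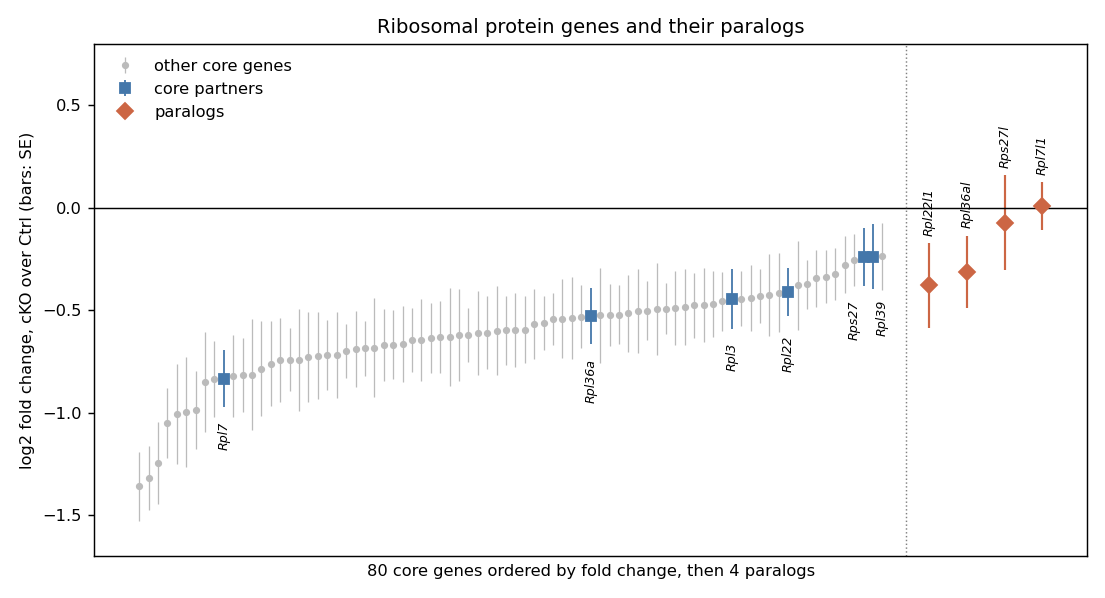
Log2 fold changes (cKO over control, edgeR) of the 80 core ribosomal protein genes in ascending order, with the core partners marked, and of the 4 tested paralogs at the right, all with their SE. All core genes lie below 0 with a median of -0.60, and Rpl7l1 and Rps27l lie near 0.

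The balance within each pair was then taken as the log2 ratio of paralog to partner in each library, computed on CPM with 0.5 added, which cancels whatever scales both genes of a library alike. For Rpl7l1 over Rpl7 the ratio was -2.96, -3.29 and -3.20 in control libraries 1 to 3 and -2.31, -2.22 and -2.41 in the cKO libraries. All 3 cKO libraries were above all 3 control libraries, and the means differed by 0.84 ± 0.110 (SE), or 1.78-fold. The two-sided exact permutation p was 0.1, the smallest that this design allows, and 0.4 after Benjamini-Hochberg adjustment over the 4 pairs tested. As a share of the pair's TPM, Rpl7l1 made up 3.35%, 2.77% and 2.87% in control and 5.16%, 5.48% and 4.90% in cKO libraries, again without overlap. In CPM, Rpl7l1 itself stayed within its control range, and it was Rpl7 that was lower in the cKO libraries.

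The other 3 ratios overlapped between the groups. For Rpl22l1 over Rpl22 the ratio was -2.84 ± 0.389 in control and -2.76 ± 0.126 in cKO libraries (mean ± SD, n = 3, exact permutation p = 0.8), a difference of 0.08 ± 0.236 (SE). For Rpl36al over Rpl36a it was -1.29 ± 0.352 and -1.06 ± 0.049 (exact permutation p = 0.3), a difference of 0.24 ± 0.205 (SE), and with Rpl36 as the partner the difference was 0.28 (exact permutation p = 0.1). For Rps27l over Rps27 it was -2.71 ± 0.595 and -2.47 ± 0.170 (exact permutation p = 0.8), a difference of 0.24 ± 0.357 (SE). All 4 differences were above 0, but without control library 3, which had the lowest ratio in 3 of the 4 pairs, those of Rpl22l1 and Rps27l became -0.13 and -0.08 and that of Rpl36al fell to 0.0358 (its difference in TPM share to 0.399 percentage points). Without control library 2, those of Rpl22l1 and Rps27l were 0.26 and 0.51. In TPM, Rpl22l1 made up 58.0% ± 5.83 of its pair in control and 60.01% ± 2.72 in cKO libraries, Rpl36al 26.4% ± 4.64 and 29.5% ± 0.683, and Rps27l 4.90% ± 1.97 and 5.32% ± 0.470.

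**Figure D4:**
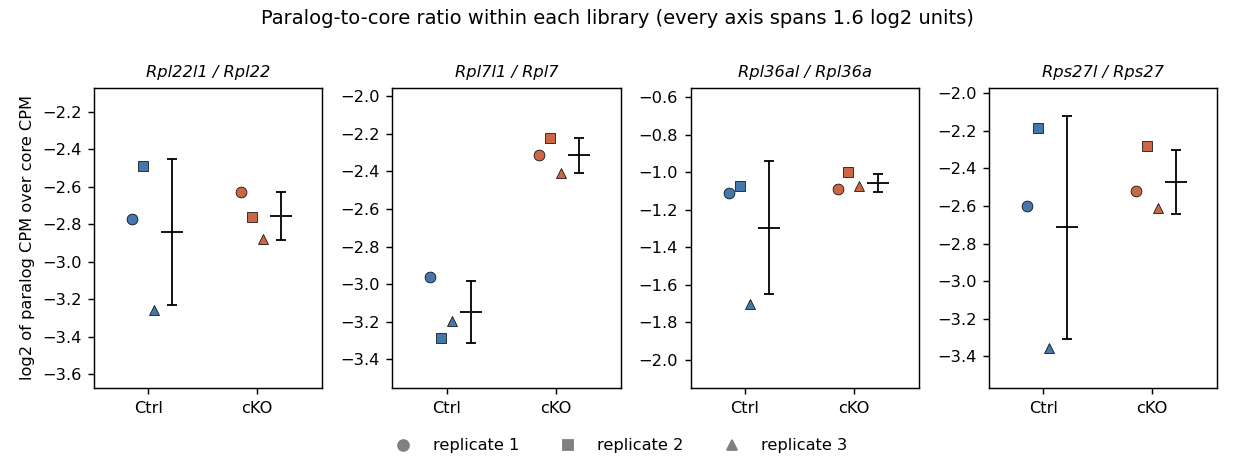
Log2 ratio of paralog to core partner (CPM with 0.5 added) in each control and cKO library for 4 pairs, with the mean and SD of each group. The groups are separated for Rpl7l1 over Rpl7, at -2.31 against -3.15 on average, and overlap for the other pairs, in which the control libraries are widely spread.

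The paralogs varied more in CPM among control libraries than among cKO libraries, and so did each partner but Rps27. Control library 2 was above the mean of the other control libraries by 1.69 times for Rps27l, 1.67 times for Rpl22l1, 1.5 times for Rpl36al and 1.17 times for Rpl7l1, in CPM. It had the highest CPM of all 6 libraries for these 4 genes and for each partner but Rps27. The SD of CPM in control and cKO libraries was 14.1 and 0.718 for Rpl22l1, 13.3 and 3.17 for Rpl36al, 8.65 and 2.98 for Rpl7l1, and 8.08 and 1.42 for Rps27l. Among the partners it was 118 and 9.6 for Rpl7, 142 and 16.4 for Rpl3, and 10.9 and 21.1 for Rps27. Without control library 2, the log2 fold change moved from -0.38 to -0.08 for Rpl22l1, from -0.31 to -0.09 for Rpl36al, from 0.01 to 0.09 for Rpl7l1 and from -0.07 to 0.23 for Rps27l, and none of the 4 passed the threshold with or without it. Among the core genes, Rpl3 moved from -0.45 to -0.27, Rpl39 from -0.24 to -0.04 and Rpl36 from -0.62 to -0.29. Rps27 moved from -0.24 to -0.10 without cKO library 2, and Rps27l from -0.07 to -0.30 without control library 3. The core share of counts, 3.74% in control library 2, moved with these values, and its part in them was not tested.

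Between CPM and TPM, Rps27l alone among the 4 tested paralogs changed direction. Over all tested genes the median log2 difference of cKO and control was 0.14 in TPM and 0.003 in CPM. In TPM, Rpl7l1 was at 71.4, 67.5 and 63.2 in control and at 76.7, 77.7 and 72.2 in cKO libraries, all cKO libraries above (exact permutation p = 0.1, n = 3), yet relative to the median of all genes the log2 difference was 0.03. Rps27l, at 219 ± 51.2 TPM in control libraries, reached 244 ± 15.9 TPM in the cKO libraries and was higher on average in TPM (0.02 relative to the median of all genes) and lower in CPM. Rpl22l1 and Rpl36al were lower on both scales, at -0.29 and -0.24 relative to that median in TPM.

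By likeness of log2 CPM across the 6 libraries, the genes closest to each paralog were not their partners. The Pearson correlations of Rpl22l1 were 0.999 with Vps4a and 0.998 with Camk2n2, against 0.640 with Rpl22. Those of Rpl36al were 0.998 with Rangrf and 0.997 with Rpp25l, against 0.648 with Rpl36a. Rpl7l1 followed Cers1 (0.995) and Pcbp3 (0.988), against 0.143 with Rpl7, and Rps27l followed Rem2 (0.995) and Mapk3 (0.995), against -0.06 with Rps27. These are the highest values over all genes tested, from 6 points that include control library 2, and are given as a description only.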

How the data were processed

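RNA-seq of E18.5 cortex was analysed in 6 libraries, grouped by the submitters' labels into 3 control (WT) and 3 cKO libraries. The authors deposited 1 table with, per gene and library, an estimated count that is not normalized between libraries, a TPM value scaled by transcript length to a fixed total, and an FPKM value scaled by length and library total. The submitters' processing notes name HISAT2 2.2.1, Bowtie2 2.4.5, RSEM 1.3.1 and GRCm38 (mm10) without their roles, and annotation and strandedness are not given in the sources used here. The 6 columns of group means that the authors added were not used, and 0 columns of per-sample values were without a sample.

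Estimated counts, 89.4% of them whole, were rounded. Genes passing filterByExpr were compared with edgeR 4.0.16 (TMM, quasi-likelihood, all 6 libraries, no covariate) in R 4.3.3, with the SE taken as the fold change over the root of F. CPM used TMM-scaled totals. Ratios used log2(CPM + 0.5). Permutation tests were exact and two-sided. FPKM entered 1 alternative only. Totals were 15091951 to 16885451 counts, the common biological coefficient of variation was 0.147, and replicates differed by a chi-square of 3.41 to 62.4 per degree of freedom, so that no library was a duplicate. The labels do not say whether libraries came from separate embryos, so p-values measure the spread between these libraries only.

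On simulated counts with 200 of 13492 genes changed, cKO against control, the method recovered 27.3% of 1.5-fold, 91.0% of 2-fold and 100% of 4-fold changes, with 7 false calls, and made 0 calls with no change. Pairs were aligned with Biopython 1.88 and figures drawn with matplotlib 3.10.9.

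The members and gene lists were chosen with earlier results of these data known. Named genes are the 6 paralogs and their partners (Rpl36 as an alternative partner of Rpl36al), Ybx1 and 4 Y-linked genes as checks, core genes past the threshold and at the ends of the range, the ends of the p53 and assembly lists with Cdkn1a, Mdm2 and Ccng1, and the 2 genes most like each tested paralog. Pax6, Cdh5 and the markers at low counts were named after their values were seen. Alternatives were RLE size factors, TMM factors without ribosomal protein genes, DESeq2 1.42.0, no filter, CPM above 1 in 2 libraries, leaving out each library, a replicate block, a length and GC correction (mgcv 1.9.3, values for 96.7% of genes) with and without the block, other pseudocounts, TPM ratios and FPKM or count shares. Rpl3l, Rpl10l and Rps4l were not analysed here. A sequence that is withheld is not printed.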

Additional observations from a re-analysis of the deposited data

How the results depend on the processing

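The number of paralogs past the threshold was 0 under all 14 alternatives, and the ratio of Rpl7l1 to Rpl7 was higher in cKO under all 10 of its alternatives (0.77 to 0.93). The count of all genes past the threshold, 10 in edgeR, was 99 with DESeq2, 159 with the length and GC correction and 8 to 122 with 1 library left out (122 without control replicate 2, 19 without control replicate 3). The count of core genes, 2 in edgeR, was 22 with DESeq2, 36 with that correction and 0 to 24 with 1 library left out (24 without control replicate 2, 4 without control replicate 3, and 0 without control replicate 1 or any single cKO replicate). With the replicate number as a block, 11 genes and 2 core genes passed, and with the block and the correction together 191 and 43. Rpl7 passed with DESeq2 (-0.84), with the correction (-0.80), with the correction and block (-0.80) and without control replicate 2 (-0.67), and Rpl22 with the correction and block (-0.38, adjusted p 0.0360 in a range of 0.0360 to 0.9999). Same-numbered libraries deviated together with correlations of 0.09, 0.06 and 0.23, too low in 2 of 3 to treat the numbers as pairs, although each library correlated best with its own number. In these block fits the ratio of Rpl7l1 to Rpl7 differed by 0.84 (exact permutation p = 0.25, the smallest for 3 pairs).

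The sign turned for values near 0: Rpl7l1 was at -0.0042 without a filter, -0.0780 without control replicate 3 and -0.0125 without cKO replicate 2, within a range of -0.0780 to 0.0888 with 1 library left out. Rps27l was at 0.0679 with the correction, 0.0959 with the block added and 0.23 without control replicate 2, within -0.30 to 0.23 with 1 library left out. Without control replicate 3, the ratio differences of Rpl22l1 and Rps27l to their partners were -0.13 and -0.0787, and the differences in TPM share -1.27 and -0.553 percentage points. With 1 library left out they ranged from -0.13 to 0.26, -0.0787 to 0.51, -1.27 to 4.31 and -0.553 to 1.42, and those of Rpl36al from 0.0358 to 0.35 in ratio and 0.399 to 4.58 points in share. The causes were not tested. A 1.5-fold change was mostly missed in the simulation at this number of libraries, and Rpl39l lay under the floor.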
